A study of Mus musculus with 6 samples.

Results

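The cytosolic ribosomal protein genes of the mouse, which encode the proteins of the cytoplasmic ribosome, were taken as every protein-coding gene whose symbol is Rpl or Rps followed by a number, together with Rplp0, Rplp1, Rplp2 and Rpsa. Pseudogenes with a -ps symbol and the S6 kinase genes were left out. This gave 86 genes: 46 proteins of the 60S subunit, 31 of the 40S subunit, 8 paralogs with a symbol of their own and Rps19bp1. Rps19bp1 is met by the rule through its symbol, but it encodes a protein that binds Rps19 and is not a subunit of the ribosome. The deposited table, with 26094 genes in all, listed 84 of the 86, without Rpl39l and Rpl3l. Of these, 83 had at least 1 FPKM (fragments normalised for transcript length and library size) in at least 3 libraries and were tested; the paralog Rpl10l did not reach that level.

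Ribosomal proteins clothe the ribosomal RNA of the 2 ribosomal subunits, the large 60S and the small 40S subunit, and most are needed for the subunits to form at all. Their mRNAs are among the most abundant in growing cells and typically begin with a run of pyrimidines (a 5' terminal oligopyrimidine or TOP sequence), through which mTORC1 and the RNA-binding protein Larp1 control their translation. Tumour cells depend on this supply for growth, and several of the proteins, such as Rpl5 and Rpl11, also bind Mdm2 when ribosome assembly falters. Reverse-transcribed copies of these mRNAs left many processed pseudogenes in the mouse genome, which matters for how sequencing reads are assigned to the genes.

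The series compared 4T1 cells, a mouse mammary carcinoma line, in 2 groups. The Limch1_OE group (n = 3 libraries) carried the mouse LIMCH1 sequence in the lentiviral vector PLVX-ires-neo, and the Vector group (n = 3 libraries) carried the empty vector. For both groups virus was packaged in HEK293T cells, a human kidney-derived line, with psPAX2 and pMD2.G, stable lines were selected with antibiotic, and cells grew in RPMI medium with 10% fetal bovine serum, penicillin and streptomycin. LIMCH1 is an actin-associated protein that activates non-muscle myosin II. Each group is a selected line that carries an integrated virus, and no uninfected cells were analysed here. Groups were read from the sample titles, since one other label counts the names of line and gene upward from sample to sample. Whether the 3 libraries of each group stem from different cultures or infections is not in the labels. All p-values therefore refer only to library-to-library spread, which could be technical.

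Limch1 itself had 24.0, 23.3 and 25.7 FPKM in the Limch1_OE libraries and 0.25, 0.15 and 0.1 FPKM in the Vector libraries, a log2 fold change of 4.44 (SE 0.08, limma adjusted p = 1.89e-09), so the libraries followed their labels. Of the epithelial markers Krt18 averaged 603 ± 40.9 FPKM in Limch1_OE against 545 ± 10.6 FPKM in Vector, Krt8 averaged 308 ± 21.7 FPKM in Limch1_OE against 327 ± 15.3 FPKM in Vector (n = 3 each, SD). Krt7 was higher, Epcam and Cdh1 were lower, and Krt19 averaged 32.2 ± 3.32 FPKM in Limch1_OE against 32.1 ± 1.94 FPKM in Vector (n = 3 each, SD). The listed markers of leukocytes (4 of 8), fibroblasts (4 of 6) and endothelium (4 of 4) were all under 1 FPKM. The sequencing depth is unknown. Mitochondrially encoded mRNAs took 5.89% to 8.2% of all FPKM in Limch1_OE and 4.39% to 5.1% in Vector, with 12 of the 13 called higher. Limch1_OE replicate 1, at 8.2%, stood apart from the other libraries of its group on the second principal component (8.98% of the variance; the first, 74.9%, separated the groups). The nuclear-retained RNAs Malat1 and Neat1, read here as signs of RNA quality, were also higher in Limch1_OE (log2 fold change 0.96 and 1.17), and Rn7sk was lower (-0.91). The part of these RNAs in the results on ribosomal protein genes was not tested, except where values without the mitochondrial mRNAs are given.

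Ribosomal protein genes were expressed far above the typical gene. Their mean over the 6 libraries ranged from 2.61 to 2790.0 FPKM with a median of 474 FPKM, against a median of 12 FPKM over all 11842 tested genes. Of the 83 tested genes 70 reached 100 FPKM and 12 reached 1000 FPKM. FPKM corrects for transcript length, but these levels also depend on how reads were divided between a member and its -ps copies, which is not known. For 7 members the listed copies held more than 50% of the sum of member and copies. Only copies that carry the member's own symbol with -ps were counted, and those under other names were left out. Rpl7a, for example, had 6 listed copies by name but shared stretches of 50 bases with 120 annotated pseudogenes. The order of levels below therefore holds only for the reads as assigned. Rpsa, which is both a 40S protein and the precursor of the laminin receptor, had 2588.3, 2828.1 and 3113.6 FPKM in the Limch1_OE libraries and 2939.9, 2965.9 and 2311.1 FPKM in the Vector libraries. Rps6, the substrate of the S6 kinases, had 2039.2, 1981.7 and 2089.5 FPKM in the Limch1_OE libraries and 1873.8, 1803.8 and 1872.1 FPKM in the Vector libraries. Next in order were Rpl10, Rpl19 and Rplp0, whose levels in Vector lay between 1291.1 and 1485.4 FPKM. Within Vector, Rpl10 (1420.6 to 1433.1 FPKM) and Rpl19 (1442.8 to 1485.4 FPKM) did not overlap, whereas Rplp0 (1291.1 to 1418.3 FPKM) fell just below both. At the low end Rpl21 averaged 3.0 ± 0.573 FPKM in Limch1_OE against 2.23 ± 0.0839 FPKM in Vector, and Rpl29 averaged 2.9 ± 0.14 FPKM in Limch1_OE against 2.61 ± 0.486 FPKM in Vector (n = 3 each, SD). Both proteins are ordinary 60S subunits, and for Rpl29 no principal transcript (the annotation's main coding form) was listed, so its sum leaves out its main mRNA. Rpl35a was also low, at 19.7, 24.7 and 30.3 FPKM in the Limch1_OE libraries and 30.1, 23.8 and 28.3 FPKM in the Vector libraries. Rpl21 and Rpl35a were among the 7 members whose listed copies held more than 50% of the sum. Rpl35a with its 6 copies had 290.6, 297.7 and 310.8 FPKM in Limch1_OE against 270.3, 294.2 and 266.8 FPKM in Vector, with overlapping groups. The sum for Rpl21 is given below. The low values of both genes therefore hold only for the reads as assigned.

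RNA was measured in bulk, so fewer cells of a kind and less RNA per cell cannot be told apart in what follows. Together the listed members took 10.8%, 11.42% and 11.42% of all FPKM in the Limch1_OE libraries and 10.54%, 10.89% and 10.39% in the Vector libraries. One Limch1_OE library, replicate 1, lay within the Vector range, so the groups overlapped. The means were 11.2 ± 0.358% in Limch1_OE against 10.6 ± 0.257% in Vector (n = 3 each, SD). When the mitochondrial mRNAs were left out of the total, the share was 11.76%, 12.13% and 12.16% in Limch1_OE against 11.11%, 11.39% and 10.87% in Vector, and the groups no longer overlapped. For the reads as assigned, the balance of the 2 subunits did not shift by more than its spread. The summed FPKM of 60S proteins was 1.281, 1.28 and 1.289 times that of 40S proteins in Limch1_OE and 1.278, 1.291 and 1.302 times in Vector. Neither the shares nor this ratio hold the FPKM assigned to copies. Listed pseudogenes with a ribosomal protein symbol summed to between 7780.0 and 8110.0 FPKM per library.

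**Figure D1:**
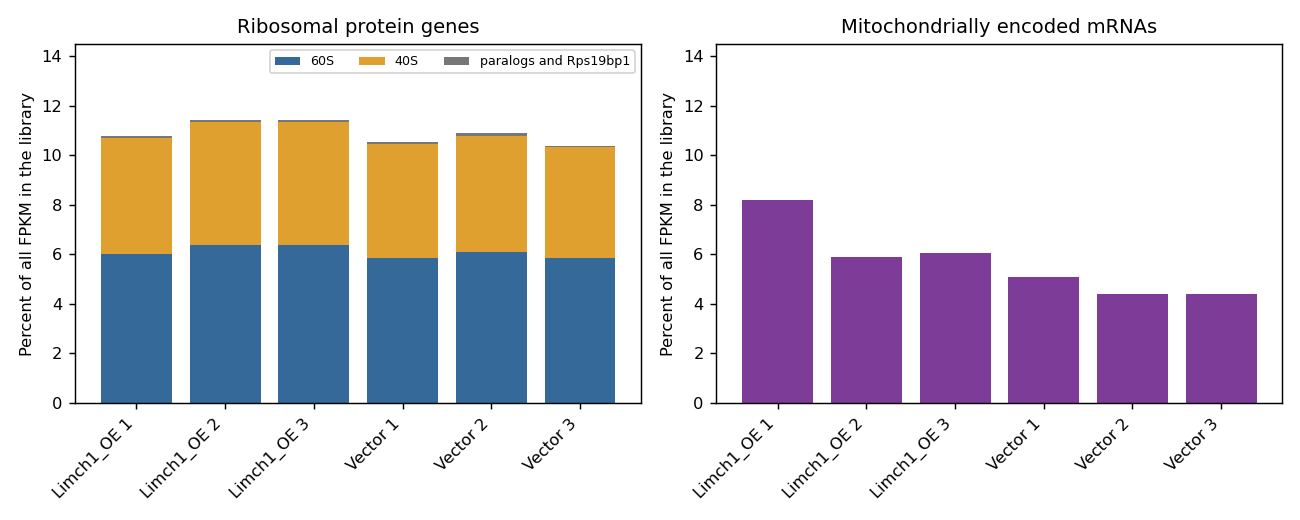
Percent of all FPKM in each library taken by ribosomal protein genes, stacked by 60S, 40S and other members (left), and by the 13 mitochondrially encoded mRNAs (right), with each bar 1 library. Ribosomal protein genes took 10.8% to 11.42% in Limch1_OE and 10.39% to 10.89% in Vector, and the mitochondrial mRNAs were higher in every Limch1_OE library.

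Gene by gene, the differences were small and mostly upward. By limma on log2(FPKM + 1), with Benjamini-Hochberg adjusted p below 0.05 over the whole table as the threshold, 29 of the 83 tested members were higher in Limch1_OE (34.9%; 20.2% of all tested genes were called higher) and 4 were lower (4.82%; 14.4% of all tested genes). The other 50 did not pass the test. The median log2 fold change was 0.13 over the members and 0.04 over all tested genes. The median size of a called change was 0.26 on the log2 scale, and 26 of the 29 higher members changed by less than 0.5. All 29 higher members had every Limch1_OE library above every Vector library, as did 10 members that did not pass (39 in all, where 28.6% of all tested genes showed this pattern). All 4 lower members had every Limch1_OE library below every Vector library, as did 3 more (7 in all, against 20.5% of all tested genes). With a pseudocount of 0.1 or 5 in place of 1 the same 29 and 4 members were called.

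The number of called members depended on single libraries, and 15 of the 33 called members kept their call without any one of them (among them Rpl3, Rpl5, Rpl14, Rpl22, Rpl24, Rpl28, Rpl36a, Rpl37a, Rpl39, Rps4x, Rps13, Rps19 and Rps21). The number of higher members was 14 without Vector replicate 1 (13.5% of all tested genes then being higher), 18 without Limch1_OE replicate 2 (13.9%) and 18 without Vector replicate 3 (14.9%), and the number of lower members was 2 without Limch1_OE replicate 2 (11.3% of all tested genes then being lower) and 1 without Vector replicate 2 (10.9%). With a trimmed mean of M values scaling, 23 members were higher and 5 lower, while over all tested genes 1856 were higher and 2082 lower, against 2388 higher and 1706 lower on the deposited scale. With FPKM rescaled to the total without mitochondrial mRNAs, 38 members were higher (45.8%; 23.4% of all tested genes then being higher) and 3 lower (3.61%; 12.6% of all tested genes).

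**Figure D2:**
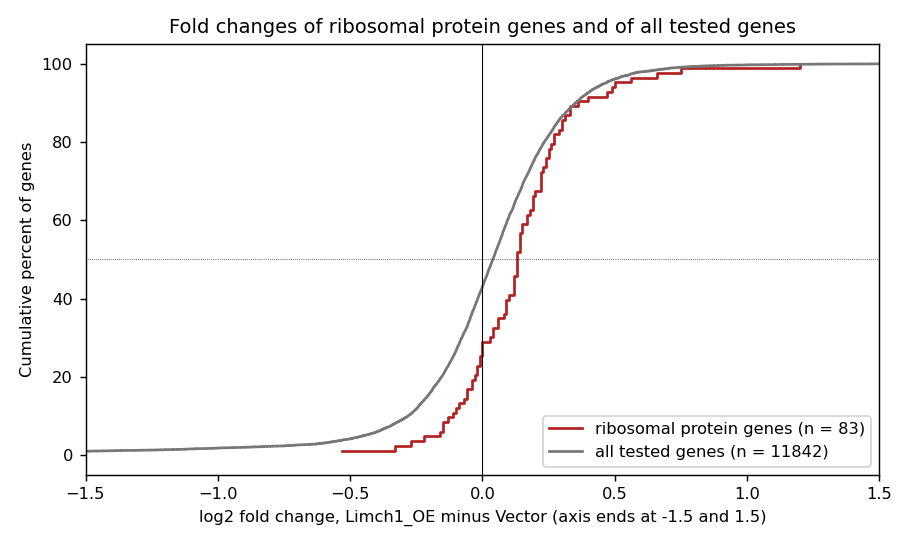
Cumulative percent of genes (vertical axis) at or below each log2 fold change of Limch1_OE minus Vector (horizontal axis), for the 83 tested ribosomal protein genes and all 11842 tested genes. The curve of the ribosomal protein genes crosses 50% at 0.13 and that of all tested genes at 0.04.

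Among 60S proteins limma called 16 of 46 higher and 0 lower (34.8% higher; 1 was lower at an unadjusted p below 0.05), where 20.2% of all tested genes were higher and 14.4% lower, and the median log2 fold change was 0.13. The largest called change belonged to Rpl37a, a zinc-binding protein of the large subunit, with 139.7, 150.0 and 143.4 FPKM in the Limch1_OE libraries and 84.3, 94.0 and 79.3 FPKM in the Vector libraries. Its groups were far apart, with a log2 fold change of 0.75 (SE 0.06, limma adjusted p = 6.17e-05). Rpl36a, which contacts the deacylated tRNA in the exit (E) site, had 279.1, 273.9 and 257.1 FPKM in the Limch1_OE libraries and 164.1, 186.1 and 162.1 FPKM in the Vector libraries. Every Limch1_OE library of Rpl36a lay above the Vector libraries, with a log2 fold change of 0.66 (SE 0.06, limma adjusted p = 0.000117). Rpl24, which forms a bridge to the small subunit, had 486.0, 519.1 and 467.6 FPKM in the Limch1_OE libraries and 342.5, 366.9 and 341.1 FPKM in the Vector libraries. All Limch1_OE values of Rpl24 exceeded 450 FPKM and no Vector value reached 370 FPKM, and the test gave a log2 fold change of 0.49 (SE 0.06, limma adjusted p = 0.000365).

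Rpl39, a tiny protein that lines the tunnel through which the nascent chain leaves, had 139.0, 144.9 and 155.8 FPKM in the Limch1_OE libraries and 116.8, 120.9 and 110.3 FPKM in the Vector libraries. The Limch1_OE libraries were again all the higher ones, though the gap to Vector was narrower, with a log2 fold change of 0.33 (SE 0.06, limma adjusted p = 0.00276). Rpl5, which carries 5S rRNA into the ribosome together with Rpl11 and can bind Mdm2, had 817.1, 777.1 and 770.1 FPKM in the Limch1_OE libraries and 645.1, 629.3 and 650.2 FPKM in the Vector libraries. The spread within each group of Rpl5 was small beside the gap between them, with a log2 fold change of 0.30 (SE 0.05, limma adjusted p = 0.00251). The other 60S proteins called higher were Rpl3 (log2 fold change 0.27), Rpl22 (0.27), Rplp2 (0.26), Rpl14 (0.25), Rpl28 (0.24), Rpl7 (0.22), Rpl10a (0.22), Rpl36 (0.20), Rpl23 (0.19), Rpl11 (0.19) and Rpl10 (0.17). Of these, Rpl7 lost its call without Vector replicate 1, and Rplp2, Rpl10a, Rpl36 and Rpl23 each lost theirs without Limch1_OE replicate 2, Vector replicate 1 or Vector replicate 3. Rpl36 also lost it without Limch1_OE replicate 3, and Rpl23 without Limch1_OE replicate 1. Rpl10 had 1549.8, 1594.8 and 1663.0 FPKM in the Limch1_OE libraries and 1431.9, 1420.6 and 1433.1 FPKM in the Vector libraries, and its direction turned to -0.12 with quantile normalization. The call of Rpl10 was lost without each library except Limch1_OE replicate 1.

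Of the 40S proteins 11 of 31 were higher (35.5%; 20.2% of all tested genes) and 3 were lower (9.68%; 14.4% of all tested genes), at a median of 0.13. The difference between the subunits was not tested. Rps21, a small protein that lies beside Rpsa, had 190.2, 187.3 and 197.6 FPKM in the Limch1_OE libraries and 134.6, 140.5 and 115.2 FPKM in the Vector libraries. Its Limch1_OE libraries were all above 187 FPKM and its Vector libraries below 141 FPKM, with a log2 fold change of 0.56 (SE 0.07, limma adjusted p = 0.000632). Rps28, near the channel where the mRNA leaves, had 122.3, 102.0 and 141.3 FPKM in the Limch1_OE libraries and 77.2, 99.2 and 85.3 FPKM in the Vector libraries. The Rps28 libraries barely separated, since Limch1_OE replicate 2 and Vector replicate 2 nearly met, and the test gave a log2 fold change of 0.47 (SE 0.12, limma adjusted p = 0.0171). This call was lost without Vector replicate 1 and without Vector replicate 3. Rps4x, the X-linked form of a 40S body protein, had 1094.1, 1157.4 and 1072.5 FPKM in the Limch1_OE libraries and 858.4, 871.2 and 854.1 FPKM in the Vector libraries. Both groups of Rps4x were tight and apart, with a log2 fold change of 0.36 (SE 0.05, limma adjusted p = 0.00125).

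Rps13, which forms a bridge to the large subunit, had 316.9, 370.6 and 326.9 FPKM in the Limch1_OE libraries and 259.8, 284.1 and 259.3 FPKM in the Vector libraries. Limch1_OE replicate 2 was the highest library of Rps13 and the groups did not overlap, with a log2 fold change of 0.33 (SE 0.07, limma adjusted p = 0.00651). Rps19, the gene mutated most often in Diamond-Blackfan anaemia, had 297.4, 298.7 and 296.3 FPKM in the Limch1_OE libraries and 241.4, 244.6 and 245.7 FPKM in the Vector libraries. It was among the most even members within each group, with a log2 fold change of 0.29 (SE 0.04, limma adjusted p = 0.00117). Further 40S proteins called higher included Rps9 (log2 fold change 0.24), Rps16 (0.22) and Rps15a (0.19). All 3 calls were lost without Limch1_OE replicate 2 and without Vector replicate 1. Those of Rps16 and Rps15a were also lost without Vector replicate 3, and that of Rps16 without Limch1_OE replicate 3. With no filter or only the most abundant transcript, Rps16 and Rps9 lost their calls. Rps16 also lost it with only protein-coding transcripts or a trimmed mean of M values scaling, and Rps9 with quantile normalization. The principal transcript held 32.8% of the FPKM of Rps16.

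Rps2 and Rps20 were among the 3 lower 40S proteins. Rps2, at the entry of the mRNA channel, had 108.4, 81.1 and 97.9 FPKM in the Limch1_OE libraries and 109.4, 122.8 and 128.2 FPKM in the Vector libraries. Limch1_OE replicate 1 and Vector replicate 1 differed by about 1 FPKM, with a log2 fold change of -0.33 (SE 0.10, limma adjusted p = 0.034), and the call was lost without Limch1_OE replicate 2, Limch1_OE replicate 3, Vector replicate 2 or Vector replicate 3. Rps20, in the 40S head, had 68.2, 67.8 and 67.0 FPKM in the Limch1_OE libraries and 74.6, 77.7 and 74.4 FPKM in the Vector libraries. The Rps20 groups were separated by about 6 FPKM, with a log2 fold change of -0.16 (SE 0.04, limma adjusted p = 0.0204), and the call was lost without Limch1_OE replicate 2, Vector replicate 1 or Vector replicate 2.

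Of the paralogs 5 were tested. Rpl22l1, the paralog of Rpl22, was also called higher: Rpl22l1 had 28.4, 25.9 and 24.0 FPKM in the Limch1_OE libraries and 18.9, 21.6 and 22.1 FPKM in the Vector libraries. Its Limch1_OE libraries were all above the Vector libraries, with a log2 fold change of 0.31 (SE 0.08, limma adjusted p = 0.0168), and the call was lost without Vector replicate 1. The call was also lost with no filter, with only protein-coding transcripts, with only the most abundant transcript, and with a length and GC trend removed. The principal transcript held 17.1% of the FPKM of Rpl22l1. Rpl7l1 was higher by less (log2 fold change 0.15, limma adjusted p = 0.0417, lost without each library except Limch1_OE replicate 1), at 48.9 ± 1.86 FPKM in Limch1_OE against 44.0 ± 1.24 FPKM in Vector (n = 3 each, SD). Rps27l, a paralog of Rps27 and a p53 target gene, had 54.7, 60.3 and 59.6 FPKM in the Limch1_OE libraries and 67.4, 71.4 and 65.0 FPKM in the Vector libraries. All Limch1_OE libraries of Rps27l were below all Vector libraries, with a log2 fold change of -0.22 (SE 0.06, limma adjusted p = 0.017), and the call was lost without Vector replicate 2. Rps27 itself had 211.3, 236.1 and 331.9 FPKM in the Limch1_OE libraries and 291.1, 259.4 and 287.1 FPKM in the Vector libraries, and its groups overlapped. Rpl36al, the autosomal counterpart of the X-linked Rpl36a, averaged 131 ± 5.03 FPKM in Limch1_OE against 131 ± 8.21 FPKM in Vector (n = 3 each, SD; log2 fold change 0.00). The retrogene Rps27rt ranged from 43.7 to 127.4 FPKM in Limch1_OE against 42.2 to 96.0 FPKM in Vector. Rpl10l, known as a testis form of Rpl10, was listed at 0 in every library except Vector replicate 3 (0.13 FPKM). Rps19bp1 averaged 18.1 ± 1.74 FPKM in Limch1_OE against 18.9 ± 1.64 FPKM in Vector (n = 3 each, SD).

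**Figure D3:**
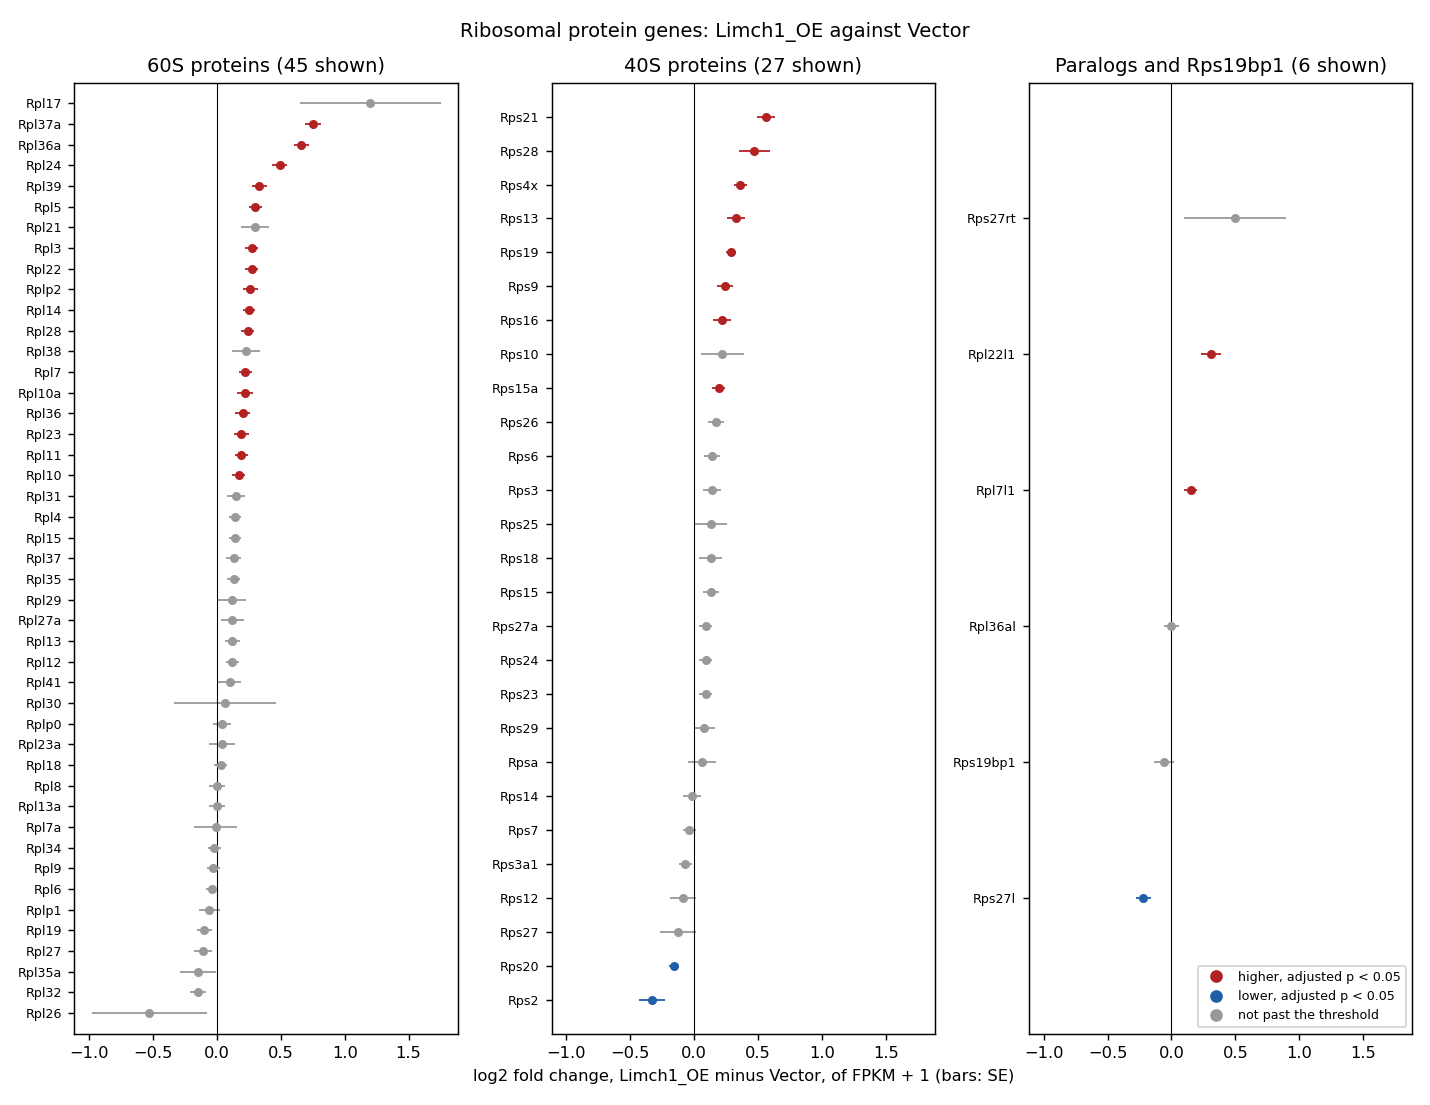
log2 fold change of FPKM + 1, Limch1_OE minus Vector (horizontal axis), with its SE for 78 of the 83 tested members, in panels for 60S proteins, 40S proteins and the paralogs with Rps19bp1. Red points are members called higher, blue points members called lower and grey points members that did not pass; Rpl10, called higher, turned negative with quantile normalization.

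**Figure D4:**
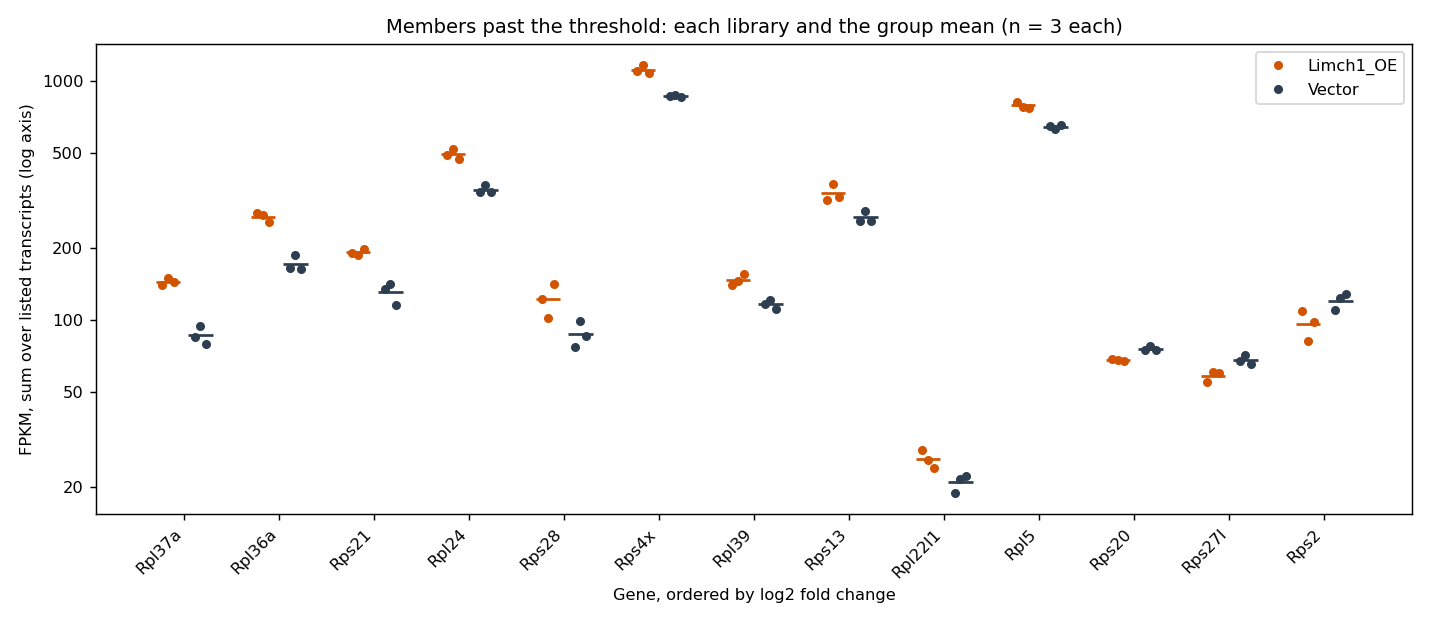
FPKM of 13 members in each library (points, log axis) with the group mean (lines), Limch1_OE in orange and Vector in dark blue, n = 3 each. Shown are called members with the largest fold changes and members called lower; the libraries of the 2 groups do not overlap for any of the 13.

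The members were also grouped by position and role, in groups of 1 to 9 genes whose counts stand beside 20.2% higher and 14.4% lower over all tested genes. Both 5S rRNA partners were higher: Rpl5, given above, and Rpl11, which had 452.9, 481.2 and 457.2 FPKM in the Limch1_OE libraries and 391.6, 402.7 and 421.7 FPKM in the Vector libraries. The call of Rpl11 was lost without Limch1_OE replicate 2, Vector replicate 1 or Vector replicate 2. Of the 3 proteins that reach towards the peptidyl transferase centre, Rpl3 and Rpl10 were higher, and Rpl4 had a log2 fold change of 0.14 and a limma adjusted p of 0.0613. Of the E-site and bridge proteins Rpl36a, Rpl24 and Rps13 were higher, and the very short Rpl41 had 455.1, 503.5 and 515.6 FPKM in the Limch1_OE libraries and 470.3, 514.2 and 394.9 FPKM in the Vector libraries, with overlapping groups. Of the acidic stalk, which recruits the translational GTPases, Rplp2 was higher, while the log2 fold changes of Rplp0 (0.04) and Rplp1 (-0.06) did not pass. Around the tunnel exit 1 of 7 proteins was higher, Rpl39. Of the 3 proteins of the mRNA path and decoding centre Rps2 was lower, and Rps3 (log2 fold change 0.14) and Rps23 (0.09) did not pass. Rps6 itself had a log2 fold change of 0.14 and a limma adjusted p of 0.0905 with its 3 Limch1_OE libraries above its 3 Vector libraries. Of 9 genes whose single-copy loss causes Diamond-Blackfan anaemia in humans, 4 were higher (44.4%; 20.2% of all tested genes), among them Rps19, Rpl5 and Rpl11, and none was called lower by limma (0 also at an unadjusted p below 0.05). Their median log2 fold change was 0.19.

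The members that did not pass were not all close to 0. Rpl17, which sits at the tunnel exit, had the largest fold change of any member, with 131.2, 65.5 and 423.1 FPKM in the Limch1_OE libraries and 91.4, 57.7 and 55.3 FPKM in the Vector libraries. A single library, Limch1_OE replicate 3, set this value, and with a log2 fold change of 1.20 and an SE of 0.55 it did not pass (limma adjusted p = 0.123). Rpl26, also at the tunnel exit and known to bind p53 mRNA, had 98.4, 21.8 and 29.1 FPKM in the Limch1_OE libraries and 68.6, 60.6 and 47.2 FPKM in the Vector libraries. Here Limch1_OE replicate 1 was the high library and the other Limch1_OE libraries were the lowest of the 6, so the groups overlapped (log2 fold change -0.53, SE 0.45, limma adjusted p = 0.394). Of the 50 members that did not pass, 8 had an unadjusted p below 0.05, and the lowest adjusted p among the 50 was 0.0522, that of Rpl15. Genes whose highest library was at least 2 times the lowest within a group made up 4 of 80 members with a mean of at least 20 FPKM (Rpl17, Rpl26, Rpl30 and Rps27rt, 5.0%), against 24 of 3954 genes at that level (0.607%).

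Each gene value is a sum over listed transcripts, and the split between transcripts was unstable for some members. Of 136 member transcripts with a mean of at least 20 FPKM, 13 in 10 genes changed at least 5-fold within a group (9.56%), against 92 of 3615 transcripts at that level (2.54%); a value under 0.01 FPKM was set to 0.01 for this ratio. In Rpl17 the high library also differed in the transcript listed: its 775-base coding form had 423.07 FPKM in Limch1_OE replicate 3 and 0 in every other library, while its 1326-base coding form had 0 in that library and 131.25 and 65.48 FPKM in the other Limch1_OE libraries and 91.44, 57.71 and 55.31 FPKM in the Vector libraries. Rps10, a protein of the 40S head, showed the same kind of swing across groups. Its 498-base form had 525.0, 564.72 and 1.15 FPKM in Limch1_OE against 466.19, 1.44 and 443.54 FPKM in Vector, and its 887-base form was highest in the 2 libraries in which the short form nearly vanished.

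**Figure D5:**
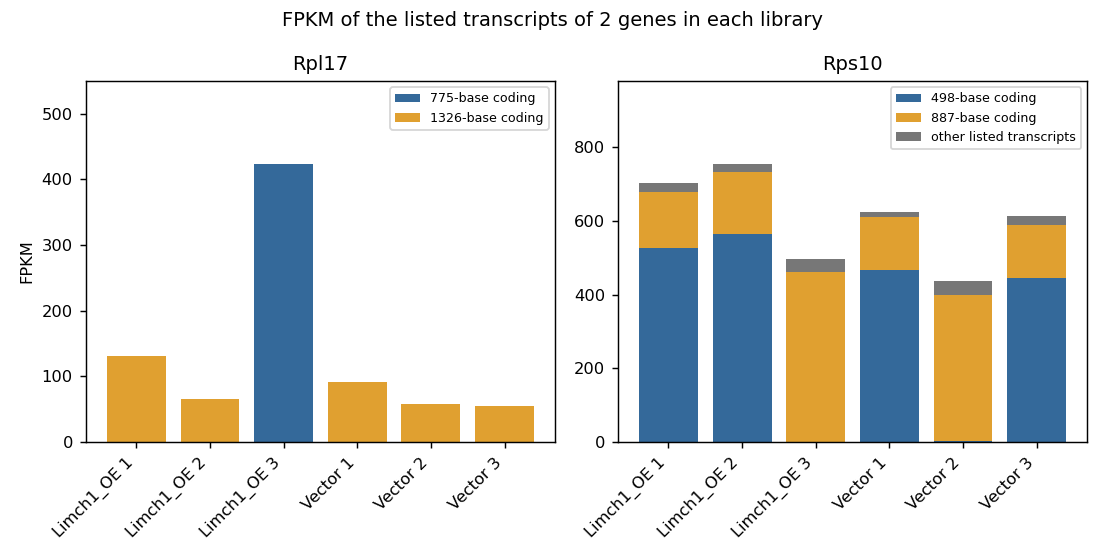
FPKM of the listed transcripts of Rpl17 and Rps10 in each library, stacked, with the 2 most abundant forms in color and the rest in grey. The 775-base form of Rpl17 appears only in Limch1_OE replicate 3, and the 498-base form of Rps10 nearly vanishes in Limch1_OE replicate 3 and Vector replicate 2.

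Tested transcript by transcript, 17 of 306 member transcripts were higher (3.12% of all 19905 tested transcripts were called higher) and 3 were lower (4.12% of all). Of the 17 higher ones, 13 were protein-coding forms, including the main forms of Rpl37a (log2 fold change 0.75), Rpl36a (0.65), Rps21 (0.58), Rpl24 (0.49), Rps4x (0.36), Rpl39 (0.33), Rpl5 (0.29), Rpl3 (0.26), Rpl14 (0.26) and Rpl7 (0.25). The lower ones included minor coding forms of Rpl10 and Rpl35a. Leaving out single libraries brought the higher transcripts to between 5 and 12: they numbered 5 without Vector replicate 1, 9 without Vector replicate 2, 6 without Vector replicate 3, 7 without Limch1_OE replicate 2 and 6 without Limch1_OE replicate 3. Protein-coding forms held 85.6 ± 0.538% of the members' FPKM in Limch1_OE against 85.7 ± 1.83% in Vector, and retained-intron forms held 5.78 ± 0.569% in Limch1_OE against 6.32 ± 0.174% in Vector (n = 3 each, SD). In 6 members, among them Rpl10a, Rpl12, Rpl22l1, Rps16 and Rpsa, the most abundant listed transcript was not protein-coding in the annotation.

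The members share much of their sequence with other transcripts. A median of 59.4% of the 50-base stretches of a member's most abundant transcript also occurred in an annotated transcript of another gene, and for 50 members it was more than 50%. No such stretch was found in 2 members, one of them Rps19bp1. Across the 83 members Spearman's rho of the log2 fold change was 0.05 with this share, -0.15 with GC content and -0.17 with the level; these members come from the same 6 libraries and are not independent. The table listed 203 genes named as -ps copies of 54 members, of which 198 are annotated as pseudogenes and 5 as protein-coding. For 7 members these copies held more than 50% of the joint sum. Copies under other names were not counted, so a joint sum need not hold every gene that shares the member's sequence. Rps2 was the extreme among called members: it averaged 108 FPKM over the 6 libraries while Rps2-ps10 averaged 1940.0 FPKM, and its 8 listed copies held 95.7% of the sum.

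Adding the copies to their member, a step chosen after the values were seen, changed which genes passed. Rpl17 with its 7 copies had 1226.3, 1208.5 and 1202.6 FPKM in Limch1_OE against 1155.9, 1177.9 and 1195.3 FPKM in Vector. The high library of Rpl17 was not high in this sum. Its copy Rpl17-ps3 had 197.6, 161.1 and 59.3 FPKM in the Limch1_OE libraries and 171.0, 161.0 and 151.1 FPKM in the Vector libraries, so it was lowest in the library in which Rpl17 was highest. A change of form and a different assignment of reads between Rpl17 and its copies cannot be told apart from these values, and the fold change of the sum did not pass (log2 0.04, SE 0.05, limma adjusted p = 0.524). Rps2 with its copies averaged 2370.0 ± 147 FPKM in Limch1_OE against 2690.0 ± 74.4 FPKM in Vector (n = 3 each, SD), with a log2 fold change of -0.19 that no longer passed (limma adjusted p = 0.0545). Rps12, a 40S beak protein with 21 listed copies, averaged 1200.0 ± 13.6 FPKM in Limch1_OE against 1360.0 ± 55.6 FPKM in Vector (n = 3 each, SD) with them and then passed as lower (log2 fold change -0.18, limma adjusted p = 0.0287). Its most abundant copy was Rps12-ps3, annotated as protein-coding, at a mean of 401 FPKM over the 6 libraries. Rpl21 with 13 copies averaged 145 ± 8.39 FPKM in Limch1_OE against 120.0 ± 5.02 FPKM in Vector (n = 3 each, SD) and passed as higher (log2 fold change 0.27, limma adjusted p = 0.00694). In all, 30 members were then higher (36.1%; 20.2% of all tested genes) and 4 lower (4.82%; 14.4% of all tested genes). Of these, 29 and 3 were also called without the copies. Rpl36a kept a log2 fold change of 0.64 with its 3 copies, and Rpl3 kept 0.27 although Rpl3-ps1 alone exceeded it.

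Promoter sequence was read from the RefSeq table for GRCm38.p6, which held a window for 63 of the 83 tested members. Each member gave 1 window, the one whose start lay nearest that of its most abundant transcript. The 32851 windows set beside them were all those held, without a choice of 1 per gene or a limit to tested genes. The shares below therefore compare unlike sets. A run of at least 8 pyrimidines in the 30 bases before and 20 bases from the annotated start was found in 30 of the 63 windows (47.6%), against 20.2% of all 32851 windows. The 6-base word CCGGAA, on either strand of the 300-base promoter, was in 32 of the 63 (50.8%), against 14.9% of all. Its reverse complement TTCCGG can share bases with a pyrimidine run. TATAAA in the 50 bases before the start was in 1 of the 63 (1.59%), against 2.63% of all. Among the 23 windows of members called higher, 8 held the pyrimidine run and 8 held CCGGAA, and among the 40 windows of the other members 22 held the run and 24 held CCGGAA. These matches describe letters only, and the annotated start can differ from the start used in these cells. The first set shows 5 of the 13 members with a run of at least 8 across the annotated start, namely all 4 of them that were called higher and Rps6, and the second shows the members with the largest changes in each direction. Each window runs 5' to 3' on the gene's strand, base 31 is the annotated start, and capitals mark the longest run of C and T (the first if tied).
Rpl14 (chr9:120571487-120571536, plus strand): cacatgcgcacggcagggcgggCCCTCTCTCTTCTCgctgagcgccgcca
Rpl28 (chr7:4792935-4792984, plus strand): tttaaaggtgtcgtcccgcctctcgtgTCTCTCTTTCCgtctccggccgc
Rplp2 (chr7:141447621-141447670, plus strand): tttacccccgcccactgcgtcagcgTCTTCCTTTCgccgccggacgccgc
Rps9 (chr7:3704011-3704060, plus strand): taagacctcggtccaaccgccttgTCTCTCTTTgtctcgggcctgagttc
Rps6 (chr4:86857348-86857397, minus strand): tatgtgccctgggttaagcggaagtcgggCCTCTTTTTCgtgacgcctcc
Rpl37a (chr1:72711230-72711279, plus strand): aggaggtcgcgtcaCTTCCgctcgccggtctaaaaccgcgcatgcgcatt
Rpl36a (chrX:134585624-134585673, plus strand): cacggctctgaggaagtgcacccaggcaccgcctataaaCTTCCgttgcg
Rps21 (chr2:180257349-180257398, plus strand): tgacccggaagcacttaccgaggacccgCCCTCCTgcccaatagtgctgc
Rpl24 (chr16:55966245-55966294, plus strand): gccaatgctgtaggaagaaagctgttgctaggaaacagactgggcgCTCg
Rps2 (chr17:24720033-24720082, plus strand): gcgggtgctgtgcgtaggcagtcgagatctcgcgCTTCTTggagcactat
Rps27l (chr9:66946056-66946105, plus strand): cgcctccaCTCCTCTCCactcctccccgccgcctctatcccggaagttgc
In the first set the run covered the start: it was 14 bases long in Rpl14, 11 in Rpl28, 10 in Rplp2, 9 in Rps9 and 10 in Rps6. Of all 13 members with such a run over the start, 4 were called higher (Rpl14, Rpl28, Rplp2 and Rps9) and 9 did not pass, among them Rps6. In the second set Rps27l held a run of at least 8, of 9 bases, followed by another of the same length. Both lay upstream of the start, and only the first is in capitals. The 7-base run of Rps21 also covered the start, and the runs of Rpl37a, Rpl36a, Rpl24 and Rps2 were 5, 5, 3 and 6 bases long.

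By chromosome, a split made after the values were seen, all 4 members of chromosome X (Rpl10, Rpl36a, Rpl39 and Rps4x) were called higher, with the exception for Rpl10 under quantile normalization given above. Of all 360 tested genes of chromosome X, 144 were called higher (40%) and 22 lower (6.11%). The largest group, 14 members on chromosome 7, held 9 higher genes (64.3%) and 1 lower gene (7.14%). Of all 883 tested genes of chromosome 7, 198 were called higher (22.4%) and 110 lower (12.5%).

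The neighbouring parts of the pathway were read from lists of genes. Of 3 genes that encode ribosomal proteins under other symbols, among them Fau (log2 fold change 0.14) and Rack1 (0.02), limma called none (1, Fau, had an unadjusted p below 0.05). Of 59 ribosome assembly factors 22 were higher (37.3%; 20.2% of all tested genes) and 2 were lower (3.39%; 14.4% of all tested genes), at a median log2 fold change of 0.10. Nop10, a subunit of the pseudouridylation particles, averaged 14.6 ± 1.71 FPKM in Limch1_OE against 8.57 ± 0.676 FPKM in Vector (n = 3 each, SD; log2 fold change 0.70). Nucleolin (Ncl) was higher by 0.55 on the log2 scale. Dkc1, the pseudouridine synthase of the same particles, followed with 0.46, and the lower factors were the 60S export adaptor Nmd3 (-0.23) and Mybbp1a (-0.19). Of 5 dedicated chaperones of ribosomal proteins none was called by limma (1, Pdcd2, had an unadjusted p below 0.05), and the groups overlapped for each.

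Each count in the following lists is to be read beside the 20.2% of all tested genes that were higher and the 14.4% that were lower. Of 17 genes of RNA polymerase I and its factors 3 were higher (17.6%) and 1 lower (5.88%), both below those shares. The higher ones were Taf1d (log2 fold change 0.79), Polr1c (0.43) and Polr1b (0.38), and the lower one was the catalytic subunit Polr1a (-0.27). Of 28 initiation factors 8 were higher (28.6%) and 2 lower (7.14%), led by Eif3a (0.37), Eif4a1 (0.32), Eif3g (0.30) and Eif3m (0.30), with Eif3b and Eif3d lower (both -0.24). Of 21 further translation genes limma called 5 higher (23.8%, close to the share of all tested genes) and 0 lower (0 lower also at an unadjusted p below 0.05), led by the poly(A)-binding protein Pabpc4 (0.54), Eif4b (0.41) and Hnrnpa1 (0.32). Of 17 genes of mTORC1 signalling and TOP mRNA control, 4 were higher (23.5%, again close to that of all tested genes) and 1 was lower (5.88%). The higher ones were the mTOR inhibitor Deptor (0.83), Pdcd4 (0.41), Rps6kb2 (0.40) and Mlst8 (0.26). The members of this list do not all act in 1 direction, and Larp1, which represses the translation of TOP mRNAs, was lower (log2 fold change -0.16). It averaged 63.3 ± 0.824 FPKM in Limch1_OE against 71.0 ± 0.15 FPKM in Vector (n = 3 each, SD).

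Of 7 host genes of small nucleolar RNAs, several of which are TOP RNAs themselves, 5 were higher (71.4%; 20.2% of all tested genes) and 1 was lower (14.3%; 14.4% of all tested genes). Gas5 averaged 528 ± 17.4 FPKM in Limch1_OE against 392 ± 28.1 FPKM in Vector (n = 3 each, SD; log2 fold change 0.43), Snhg5 and Snhg8 were higher by 0.64 and 0.56, and Snhg1 was lower (-0.25). The mitochondrial ribosome, a separate machine whose proteins are encoded in the nucleus, was read in the same way. Of its 78 protein genes 7 were higher (8.97%; 20.2% of all tested genes) and 5 lower (6.41%; 14.4% of all tested genes), so the list was below the table in both directions. Its median log2 fold change of 0.04 was the same as that of all tested genes. Its leading genes were Mrpl43 (0.29) among the higher and Mrps24 (-0.32) among the lower. The difference between this list and the cytosolic members was not tested.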

How the data were processed

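Libraries of total RNA from 4T1 cells, 3 Limch1_OE and 3 Vector, were compared. The authors deposited FPKM values per transcript (77865 transcripts of 26094 genes), with no counts, so the depth is unknown and precision is the SD over 3 libraries. Per the submitters' processing notes, build mm10, StringTie 2.2.1, featureCounts 2.0.1, STAR 2.7.10 and fastp 0.23.2 were used; how reads matching several places were treated is not given in the sources used here. Gene values are sums over the listed transcripts; GENCODE M21 matched 26033 gene identifiers. A sum lacks transcripts that the table does not list. Genes that reached 1 FPKM in 3 or more libraries were fitted with limma 3.58.1 in R 4.3.3 (trended eBayes, two-sided) on log2(FPKM + 1), a scale that understates changes of low genes, as Limch1_OE minus Vector with no covariate; the script was tested on simulated data. The rule for library values takes the 12 called members with the largest fold change and every lower member; a few genes it takes are counted but not reported by name here. Values are also given for Rps19, Rpl10, Rpl11, Rpl17, Rpl26, Rpl35a, Rpl41, Rps27, Rpsa and Rps6, several of them chosen after their values were seen; from each list up to 3 genes per direction are named, and a few more. Members and lists were chosen with earlier results of these data known. Alternatives changed the pseudocount, filter, scaling, transcripts summed, replicate block and libraries; removal of a length and GC trend and addition of -ps copies were chosen after seeing the data.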

Additional observations from a re-analysis of the deposited data

How the results depend on the processing

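Of the 33 called members, 11 kept their call under all 18 alternatives (among them Rpl3, Rpl5, Rpl14, Rpl24, Rpl36a, Rpl37a, Rpl39, Rps4x, Rps19 and Rps21), and 15 kept it without any single library. The only reversed direction was Rpl10, at -0.12 with quantile normalization. The higher members numbered 13 (15.5%) with no filter, where 6.63% of all 25641 genes tested were higher. With only the most abundant transcript they numbered 19 (23.2%), where 8.63% of all genes were higher. Under that setting 1 member was lower (1.22%; 8.64% of all genes). Leaving out single libraries gave 14 to 33 higher and 1 to 5 lower members. In the same fits 13.5% to 18.8% of all tested genes were higher and 10.9% to 13.1% lower. The median log2 fold change of the members was then 0.12 to 0.15, against 0.035 to 0.043 over all tested genes. The members' share of FPKM differed between the groups by 0.50 to 0.81 percentage points. With a trimmed mean of M values scaling the median of the members was 0.09, against 0.002 over all tested genes. With the trend on transcript length and GC content removed, 27 members were higher (32.5%; 17.4% of all tested genes) and 4 lower (4.82%; 20.1% of all tested genes). Among the 50 members that did not pass, 0 to 10 changed sign under an alternative. Without single libraries 5 to 12 member transcripts were higher and 1 to 3 lower. Same-numbered libraries did not deviate together (correlations of -0.00172, 0.0456 and 0.0592), so the numbers do not pair the samples. With the replicate block 29 members were higher (34.9%; 18.7% of all tested genes) and 4 lower (4.82%; 13.4% of all tested genes). Tested by transcript with this block, only 3 member transcripts were higher and 1 lower. Causes were not tested. Without counts or depth no counting error can be given, and Rpl21 and Rpl29 drop out under a filter of 5 FPKM.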

Other observations

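Copies of ribosomal protein genes were measured beside the members. Of 6 genes annotated as protein-coding despite a -ps symbol, 3 were tested. Rps12-ps3 had 333.55, 388.03 and 363.73 FPKM in the Limch1_OE libraries and 469.85, 415.24 and 438.02 FPKM in the Vector libraries. All its Limch1_OE libraries were lower, with a log2 fold change of -0.29 and a limma adjusted p of 0.0132. Rpl10-ps3 had a log2 fold change of 0.16 and a limma adjusted p of 0.0651 and Rpl9-ps6 one of 0.05, and neither passed.

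Of 290 annotated pseudogenes with a symbol of Rpl or Rps and a number the table listed 196, and 93 were tested. Of these 13 were higher (14.0%; 20.2% of all tested genes) and 4 lower (4.3%; 14.4% of all tested genes), with a median log2 fold change of 0.03. Rpl36a-ps2, a copy of a member that was itself higher, averaged 34.2 ± 1.09 FPKM in Limch1_OE against 21.9 ± 2.43 FPKM in Vector (n = 3 each, SD; log2 fold change 0.62). Rpl3-ps1 averaged 781 ± 40.9 FPKM in Limch1_OE against 647 ± 10.1 FPKM in Vector (n = 3 each, SD; log2 fold change 0.27), a log2 fold change equal to that of Rpl3. The lowest fold changes were those of Rps25-ps1 (-1.23) and Rps26-ps1 (-1.16). Rps25-ps1 was low in both groups, at 2.15 ± 1.59 FPKM in Limch1_OE against 5.85 ± 0.72 FPKM in Vector (n = 3 each, SD). Rps26-ps1 averaged 8.42 ± 4.28 FPKM in Limch1_OE against 19.1 ± 5.38 FPKM in Vector (n = 3 each, SD), and its groups overlapped. All listed pseudogenes together summed to between 7780.0 and 8080.0 FPKM in Limch1_OE against between 7780.0 and 8110.0 FPKM in Vector, so the groups overlapped. Transcription of these copies and reads from the parent genes assigned to them cannot be told apart from FPKM.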
